A study of Mus musculus with 3 samples.

Results

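The chemokines *Cxcl1*, *Cxcl2*, *Cxcl3* and *Cxcl5* are 4 of the 32285 genes counted in single bone marrow derived macrophages (BMDMs) that were left untreated or exposed to lipoproteins of *Borrelia burgdorferi* (*Bb*LP), the spirochete of Lyme disease. They bind a common receptor, CXCR2, and were selected on their CPM (UMIs per 1000000) and shares of cells in these libraries, which went in different directions at 4 hours. Those values are therefore given as a description, with no test. The cells came from bone marrow of female C3H/HeN mice aged 6 to 8 weeks with no stated mutation or transgene. They were grown into macrophages in medium conditioned by L929 cells, a fibroblast line that secretes M-CSF. The control library (Ctrl) holds PBS-treated cells, which the labels call untreated. The paper's methods state that they were collected at 4 hours, so LP1 has no control of its own time. In LP1 the cells had been in contact with *Bb*LP, at 1 µg/mL, for 1 hour, and in LP4 for 4 hours. Cells of 3 wells were mixed for each droplet-based library. The paper's single-cell methods describe macrophages of 3 mice treated independently, while its culture methods state that marrow was pooled. With a single library per condition, how far cultures differ from each other is unknown.

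CXCR2 ligands are small secreted proteins that carry a glutamate-leucine-arginine motif before their first cysteines and draw neutrophils out of the blood towards infected tissue. Macrophages that sense bacterial lipoproteins through Toll-like receptor 2 switch on NF-κB, which is known to act at the promoters of these genes, and AU-rich elements in the 3′ untranslated regions of their mRNAs bind proteins that hasten or delay decay. *Cxcl1* (KC) and *Cxcl2* (MIP-2) are classic early products of activated mouse macrophages. *Cxcl3* encodes a close relative of *Cxcl2*, and *Cxcl5* encodes LIX.

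The 4 genes lie on the plus strand of chromosome 5 in 1 group of CXC chemokine genes, within 146579 bases on GRCm38 (mm10) in the annotation GENCODE vM21. *Cxcl5* (ENSMUSG00000029371) comes first, at chr5:90759360-90761624. *Cxcl3* (ENSMUSG00000029379) is at chr5:90786103-90789600, behind the platelet chemokine genes *Ppbp* and *Pf4*. *Cxcl1* (ENSMUSG00000029380) is at chr5:90891241-90893115, and *Cxcl2* (ENSMUSG00000058427) follows 10755 bases further on, at chr5:90903871-90905938. Each has up to 4 exons, and none overlaps another annotated gene.

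The stretches before the start sites of *Cxcl1*, *Cxcl2* and *Cxcl3* are shown because they have the same pair of short sequences there, while the levels of the 3 genes took different courses. They are RefSeq sequence of the plus strand of GRCm38.p6, 5′ to 3′, and end before the first annotated base of the gene. Capitals mark the only runs of at least 8 bases that the last 150 bases before the RefSeq start have in common in all 3 genes. They are GGGAATTTCCC, of the κB type that NF-κB can bind, and ATAAAAGG, which resembles a TATA box. For *Cxcl1* the stretch is chr5:90891095-90891240, for *Cxcl2* chr5:90903749-90903870 and for *Cxcl3* chr5:90785951-90786100.
*Cxcl1*: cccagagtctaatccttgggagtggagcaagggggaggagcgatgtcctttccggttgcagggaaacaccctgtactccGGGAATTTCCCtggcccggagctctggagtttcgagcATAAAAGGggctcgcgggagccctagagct
*Cxcl2*: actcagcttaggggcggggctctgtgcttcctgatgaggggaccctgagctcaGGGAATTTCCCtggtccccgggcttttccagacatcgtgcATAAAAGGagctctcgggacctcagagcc
*Cxcl3*: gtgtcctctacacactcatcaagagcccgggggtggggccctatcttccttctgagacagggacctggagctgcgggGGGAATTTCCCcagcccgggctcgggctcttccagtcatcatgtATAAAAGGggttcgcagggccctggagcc

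Both sequences were picked for being common to the 3 genes, so their presence in all 3 is a description. In windows from 250 bases before to 50 bases after a RefSeq start, searched on both strands, GGGAATTTCCC was found in 14 of 32851 promoters (0.0426%) and ATAAAAGG in 577 (1.76%). GGGAATTTCCC began 71 bases before the RefSeq start of *Cxcl1*, 97 before that of *Cxcl2* and 73 before that of *Cxcl3*. ATAAAAGG began 34, 57 and 29 bases before the start, in the same order. The printed stretches begin 150 bases before the RefSeq start and are 146, 122 and 150 bases long. The RefSeq start of *Cxcl2* thus lies past the first annotated base of the gene, and its distances are longer for that reason. The AP-1 sequence TGANTCA, found in 7.81% of promoters, was in none of the 3 windows, and TATAAA, found in 13.6%, was in that of *Cxcl3* alone, where it overlaps ATAAAAGG. The C/EBP sequence TTNNGNAA, found in 40.7% of promoters, was in that of *Cxcl2* alone. Aligned in pairs, the 150 bases before the RefSeq starts were identical at 55.9% to 59.6% of positions. *Cxcl5* had no entry in the promoter table.

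In the 3′ untranslated regions, the AU-rich pentamer ATTTA occurred 7 times in the 592 bases of *Cxcl1*, 11 times in the 734 bases of *Cxcl2*, 5 times in the 645 bases of *Cxcl3* and 5 times in the 1111 bases of *Cxcl5*. Per 1000 bases this is 11.8, 15.0, 7.75 and 4.50, beside a median of 1.30 over 19151 genes. At least as dense were 0.543% of genes for *Cxcl1*, 0.266% for *Cxcl2*, 2.37% for *Cxcl3* and 10.4% for *Cxcl5*. These counts come from the annotation, and their relation to the levels was not tested.

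Cells with more than 500 unique molecular identifiers (UMIs, 1 per captured transcript), more than 500 genes and a mitochondrial share under 5% entered the sums, namely 6071 cells in Ctrl, 5065 in LP1 and 4670 in LP4. Depth moved with treatment: the kept cells held 35688939, 52475723 and 61402275 UMIs, a median of 5133, 9343 and 11784 per cell. The median mitochondrial share was 1.97%, 2.84% and 3.17%, and the part of depth and mitochondrial share in the differences was not tested. Between 3 and 9 cell barcodes recurred in a pair of libraries. The 10 macrophage markers, which include *Csf1r*, *Adgre1* and *Cd68*, were all detected in every library and summed to 11667, 11875 and 10804 CPM. The 12 neutrophil markers summed to 567, 468 and 750 CPM and the 6 stromal markers to 4.29, 5.85 and 19.7 CPM, none of them at 0 in any library. Over all genes, 0.697% of 7747 were at least 2-fold higher and 0.465% at least 2-fold lower in LP1 than in Ctrl. For LP4 against Ctrl these shares were 10.6% and 9.91% of 8019 genes, and for LP4 against LP1 8.75% and 7.55% of 7956.

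The 4 chemokines followed 3 courses. *Cxcl2* was the most abundant in Ctrl and LP1 and was lower in LP4. *Cxcl1* was highest in LP1 and close to its Ctrl level in LP4. *Cxcl3* and *Cxcl5* were close to absent in Ctrl and LP1 and were far higher in LP4, at 509 and 128 CPM. At 4 hours 2 of the 4 were at least 2-fold higher than in Ctrl, 1 was at least 2-fold lower and 1 was within 2-fold. The choice of these genes used that pattern, so these counts are not read against the shares over all genes. CPM is taken over the UMIs of the kept cells of a library, and all 95% intervals below are exact and cover counting error only.

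*Cxcl1* stood at 623 CPM in Ctrl (22234 UMIs), 1149 in LP1 (60279 UMIs) and 682 in LP4 (41887 UMIs). LP1 was the highest of the 3, and the Ctrl and LP4 levels were close. The log2 ratio to Ctrl was 0.88 (interval 0.86 to 0.90) in LP1 and 0.13 (0.11 to 0.15) in LP4, and LP4 over LP1 was −0.75 (−0.77 to −0.73). The LP4 value depended on how the libraries were scaled: it was 0.30 with TMM and 0.34 with median-of-ratios scaling. Such scaling shifts every gene alike, so the median log2 ratio over all genes moved with it, by 0.17 and 0.21. *Cxcl1* lay 0.20 above that median, a distance that scaling cannot change.

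*Cxcl2* stood at 4378 CPM in Ctrl (156261 UMIs), 4553 in LP1 (238939 UMIs) and 1489 in LP4 (91452 UMIs). The Ctrl level was high, and LP4 was the lowest. The log2 ratio to Ctrl was 0.057 (0.047 to 0.066) in LP1 and −1.56 (−1.57 to −1.54) in LP4, a level 0.340 times that of Ctrl. LP4 over LP1 was −1.61 (−1.62 to −1.60). *Cxcl2* had more UMIs than any other of the 4 in every library.

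*Cxcl3* stood at 3.98 CPM in Ctrl (142 UMIs), 8.44 in LP1 (443 UMIs) and 509 in LP4 (31233 UMIs). The log2 ratio to Ctrl was 1.09 (0.81 to 1.37) in LP1 and 7.0 (6.76 to 7.25) in LP4, 128 times the Ctrl level. Among the 8019 genes it was the 3rd from the top in LP4 over Ctrl. *Cxcl3* in LP4 thus came close to the *Cxcl1* level of that library.

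*Cxcl5* stood at 2.24 CPM in Ctrl (80 UMIs), 1.47 in LP1 (77 UMIs) and 128 in LP4 (7860 UMIs). The log2 ratio to Ctrl was −0.61 (−1.08 to −0.14) in LP1 and 5.84 (5.52 to 6.17) in LP4, which put it 7th from the top. The 80 UMIs in Ctrl came from 39 cells, with up to 12 in a single cell, so they were not spread evenly and the interval in LP1 is too narrow for that reason. The plot of CPM by library shows the 4 courses together.

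**Figure D1:**
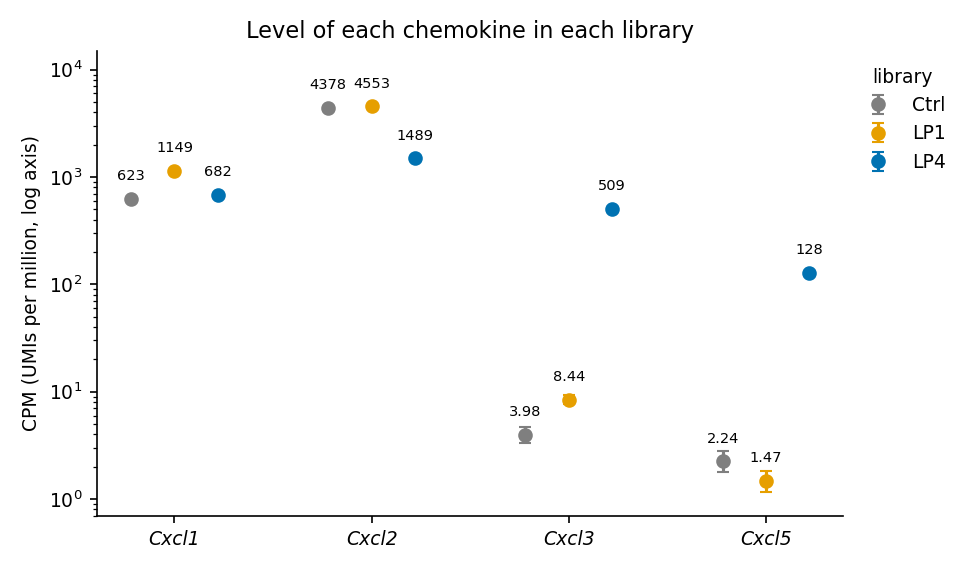
CPM of the 4 chemokines in the Ctrl, LP1 and LP4 libraries, on a log axis; bars are exact 95% Poisson intervals, which cover counting error only and are often smaller than the points. *Cxcl3* goes from 3.98 to 8.44 to 509 CPM, while *Cxcl2* goes from 4378 to 4553 to 1489.

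*Cxcl2* and *Cxcl3* have an identical run of 110 bases in their annotated transcripts, which ends 939 and 850 bases before the 3′ ends, whereas no other pair has more than 23 bases in common. UMIs read from this run could not be given to either gene with certainty. In Ctrl, *Cxcl3* UMIs were 0.0909% as many as those of *Cxcl2*, which bounds how many *Cxcl2* UMIs were counted as *Cxcl3* there. In LP1 they were 0.185% and in LP4 34.2% as many.

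The remaining CXCR2 ligands and the receptors were near the limit of detection. *Ppbp*, the platelet basic protein, stood at 1.15, 1.70 and 1.21 CPM in Ctrl, LP1 and LP4. *Cxcl15* (lungkine) had 0, 1 and 0 UMIs. *Cxcr2*, the receptor itself, had 13, 33 and 17 UMIs, *Cxcr1* had 0, 0 and 1, and the decoy receptor *Ackr1* had 0 in each library, which allows up to 0.0841, 0.0572 and 0.0489 CPM at 3 counts. None of these 5 genes reached 10 CPM in any library.

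To compare shares of cells at equal depth, 2000 UMIs were drawn from every cell that had as many, which left out 122 cells of Ctrl, 13 of LP1 and 45 of LP4. For *Cxcl1* the share with a UMI was 63.7% in Ctrl (62.5 to 64.9), 79.1% in LP1 (77.9 to 80.2) and 49.3% in LP4 (47.8 to 50.7). At the cells' own depth the shares were 82.9%, 93.8% and 72.8%. LP4 thus had the lowest share of positive cells for *Cxcl1* although its CPM was no lower than that of Ctrl. The positive cells held a mean of 2.06, 2.96 and 3.02 UMIs, in the order Ctrl, LP1, LP4.

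For *Cxcl2* it was 97.6% (97.2 to 98.0) in Ctrl, 98.6% (98.2 to 98.9) in LP1 and 65.2% (63.8 to 66.6) in LP4. Unthinned, the shares were 99%, 99.4% and 84.6%. Positive cells held a mean of 9.72, 9.81 and 5.24 UMIs, so at 4 hours both the share of cells and the number per positive cell were lower. Cells with at least 10 *Cxcl2* UMIs made up 43.9% of Ctrl, 45.9% of LP1 and 9.10% of LP4.

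For *Cxcl3* it was 0.908% in Ctrl (0.683 to 1.18), 1.46% in LP1 (1.15 to 1.84) and 41.8% in LP4 (40.3 to 43.2). *Cxcl5* was seen in 0.336%, 0.317% and 8.65% (7.85 to 9.5), in the same order. Unthinned, *Cxcl3* was in 62.8% and *Cxcl5* in 14.1% of LP4 cells. In LP4 the few cells with *Cxcl5* held a mean of 3.72 UMIs of it, more than the 2.68 of *Cxcl3* in its positive cells.

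The neutrophil-like cluster described below, with 21, 20 and 28 cells at this depth, serves as a comparison for RNA that does not come from the cell itself, although neutrophils can make *Cxcl2*. *Cxcl1* and *Cxcl5* were seen in none of its cells in any library, and 0 of the 28 LP4 cells allows a share of up to 12.3% (exact binomial). *Cxcl3* was in 0%, 0% and 7.14% of these cells and *Cxcl2* in 42.9%, 35.0% and 35.7%. Their median depth was 3947, 6220 and 9262 UMIs before thinning, against 5194, 9353 and 11838 for all thinned cells. The *Cxcl5* share over all LP4 cells was below the 12.3% that so few cells allow.

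**Figure D2:**
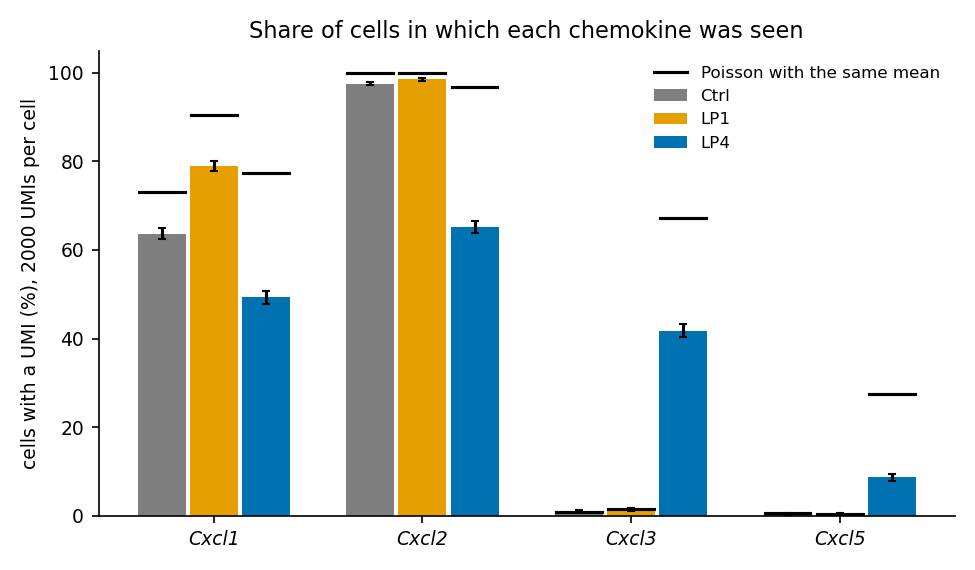
Share of cells with at least 1 UMI of each chemokine after every cell was thinned to 2000 UMIs; error bars are exact binomial 95% intervals, and black lines mark the share that a Poisson count with the same mean would give. In LP4 all 4 bars lie well under their lines, as for *Cxcl1* with 49.3% beside 77.5%.

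In LP4 the transcripts of each gene were in fewer cells than their mean number would give if spread evenly at random. A Poisson count of the same mean would put *Cxcl1* in 77.5%, *Cxcl2* in 96.7%, *Cxcl3* in 67.3% and *Cxcl5* in 27.5% of LP4 cells, all well above the shares observed. In Ctrl the corresponding value for *Cxcl1* was 73.0%, nearer to the 63.7% seen. The ratio of variance to mean over cells was 1.55 in Ctrl for *Cxcl1*, beside 1.99 in LP1 and 4.10 in LP4, and it was 3.56, 3.03 and 12.2 for *Cxcl2*. It was 3.28 for *Cxcl3* and 6.48 for *Cxcl5* in LP4, beside 1.03 and 3.39 in Ctrl, where both had few UMIs.

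The 10% of cells with most *Cxcl1* held 33.4%, 29.8% and 49.1% of its UMIs in Ctrl, LP1 and LP4. For *Cxcl2* these shares were 22.6%, 21.4% and 50.3%, and for *Cxcl3* in LP4 the share was 51.3%. The highest number of *Cxcl2* UMIs in a thinned cell was 53, 39 and 149 for Ctrl, LP1 and LP4, of which LP4 had the lowest *Cxcl2* level. The cell with 149 belongs to the neutrophil-like cluster described below. In clusters A to F alone, a choice made after the data had been seen, the highest LP4 cell held 81, the ratio of variance to mean of *Cxcl2* in LP4 was 9.94, beside 3.52 in Ctrl, and the top 10% of LP4 cells held 48.9% of the UMIs. The lower level thus went with a wider spread between cells there too. Because so many UMIs come from few cells, counting intervals on LP4 levels are narrower than the spread over cells would give.

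**Figure D3:**
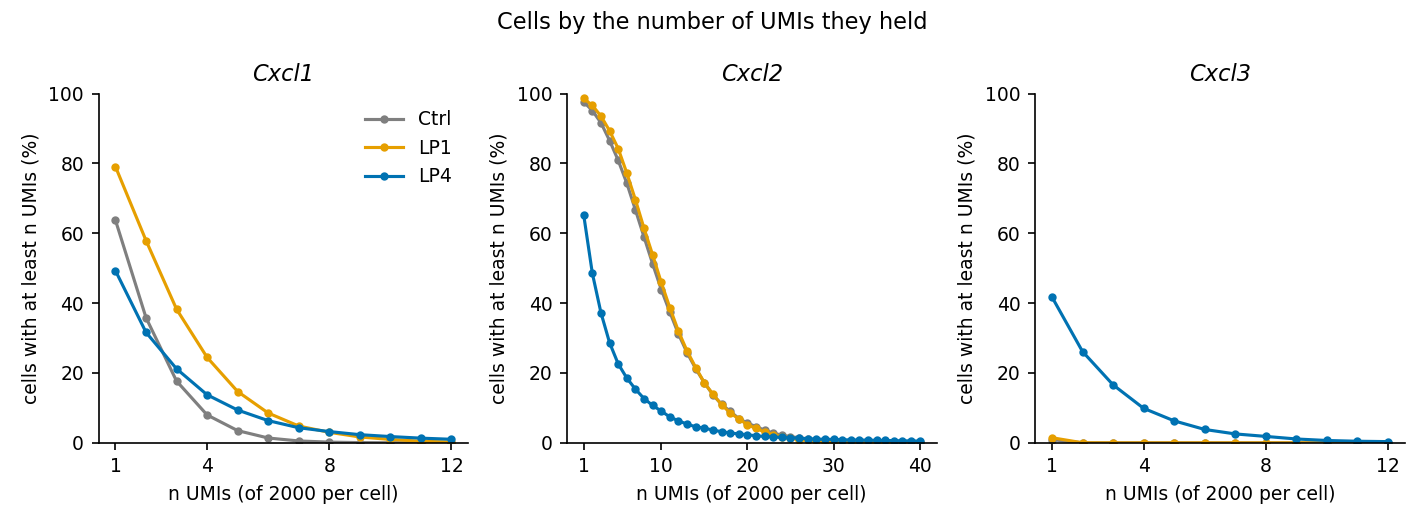
Share of cells with at least n UMIs of *Cxcl1*, *Cxcl2* and *Cxcl3* out of 2000 UMIs per cell, in the 3 libraries. The *Cxcl2* curves of Ctrl and LP1 run together. LP4 lies below them over most of the range, with 9.10% of its cells at 10 or more UMIs, and above them at the highest counts. The *Cxcl1* curve of LP4 starts lowest and crosses that of Ctrl.

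The makeup of the CXCR2 ligand pool changed accordingly. Of the summed UMIs of the 4 genes, *Cxcl2* supplied 87.7%, 80.4% and 53.8% in Ctrl, LP1 and LP4. *Cxcl1* supplied 12.1%, 19.5% and 23.5%, and in LP4 *Cxcl3* added 17.6% and *Cxcl5* 5.06%. The median cell held 10, 11 and 3 UMIs of the 4 genes together in Ctrl, LP1 and LP4. In LP4, 21.6% of cells showed none of the 4 genes, 23% showed 1, 27.9% showed 2, 23.7% showed 3 and 3.72% showed all 4. In Ctrl, 63.0% showed 2 and 2.03% none, and in LP1 77.4% showed 2 and 0.930% none.

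Within LP4 the 4 genes tended to be seen in the same cells. *Cxcl1* was seen in 64.5% of the cells with *Cxcl2* (62.7 to 66.2) and in 20.8% of those without (18.9 to 22.9). *Cxcl3* was seen in 55.9% of the cells with *Cxcl1* and in 28.0% of those without, and in 51.3% of the cells with *Cxcl2* and 23.9% of those without. *Cxcl5* was seen in 13.9% of the cells with *Cxcl3* and in 4.90% of those without. Cells with the genes that were higher at 4 hours were therefore more often, not less often, cells that also held *Cxcl2*, the gene that was lower.

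Over the 4625 thinned LP4 cells the Spearman correlation of *Cxcl1* with *Cxcl2* was 0.57, beside 0.24 in Ctrl and 0.25 in LP1. *Cxcl3* had 0.33 with *Cxcl1* and 0.32 with *Cxcl2*, and *Cxcl5* had 0.12 to 0.17 with the other three. The cells of a library share its preparation and the fixed total of 2000 UMIs, so these are descriptions.

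In Ctrl and LP4 the cells with fewer UMIs had higher CPM of all 4 genes. With the LP4 cells split by depth into 3 groups of like size, the shallowest had 232 CPM of *Cxcl5*, the middle 155 and the deepest 75.4. *Cxcl2* stood at 2274, 1569 and 1166 CPM, *Cxcl1* at 943, 757 and 546 and *Cxcl3* at 670, 590 and 405, in the same order. In Ctrl *Cxcl2* ran from 5789 to 4496 to 3817 CPM. In LP1 the order held for *Cxcl1*, *Cxcl2* and *Cxcl5* but not for *Cxcl3*, at 8.17, 8.19 and 8.70 CPM from the shallowest to the deepest. The part of depth was not tested beyond the thinning above.

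Clustering on genes that differed less than 1.5 times between libraries, with the 4 chemokines left out, gave 9 clusters. Clusters A, B, C and D, with 4307, 3419, 3330 and 3248 cells, were macrophage-like, E (1108 cells) was cycling-like with *Hist1h1b*, *Hist1h2ap*, *Cenpf* and *Top2a* among its leading genes, and F (195 cells) was dendritic cell-like with *H2-Eb1*, *H2-Aa*, *H2-Ab1*, *Cd74* and *Ccl22*. These 6 had at least 50 cells in every library. The 10 macrophage markers summed to 15262 CPM in F, within the range from 8343 in C to 17639 in B. Of these 10, 6 were seen in at least 50% of F cells, as were 4 of the 9 dendritic cell markers. G (84 cells) was neutrophil-like, led by *S100a9*, *Ngp* and *S100a8*, with *Mpo*, *Camp* and *Elane* also among its leading genes. The cycling markers summed to 6021 CPM in G, beside 4746 in E. H (62 cells) was stromal-like, with *Mgp*, *Col1a2*, *Col3a1* and *Sparc* among its leading genes behind *Csmd1*. None of the 6 stromal markers was seen in at least 50% of H cells, while 3 of the 10 macrophage markers were. Its name thus rests on its leading genes. In sums, the macrophage markers had 3540 CPM in H and the stromal markers 2260 CPM. I (53 cells) was left unnamed.

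*Cxcl1* was higher in LP1 than in Ctrl in all 6 clusters, by 0.77 to 1.10 on the log2 scale. At 4 hours the clusters parted. LP4 over Ctrl was 0.56 (0.51 to 0.60) in D, where the level went from 662 to 972 CPM, and 0.58 (0.35 to 0.81) in F. It was −0.46 (−0.51 to −0.40) in C, from 451 to 329 CPM, and −0.19 (−0.27 to −0.11) in E. In A and B it was −0.03 (−0.07 to 0.02) and −0.02 (−0.08 to 0.05), intervals that include 0.

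*Cxcl2* was lower in LP4 in all 6 clusters. The log2 ratio ran from −2.06 (−2.09 to −2.03) in C to −1.10 in D (−1.12 to −1.08) and in F (−1.19 to −1.01). In LP1 it was between −0.09 and 0.22. *Cxcl2* CPM in LP4 was 1245 in A, 1847 in B, 699 in C, 2241 in D, 1017 in E and 2410 in F. In Ctrl the highest of these was B with 6219 CPM and the lowest C with 2911.

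*Cxcl3* was higher in LP4 in all 6 clusters, by 6.65 to 7.14. The lowest value, in F, rests on 4 Ctrl UMIs (5.29 to 8.53), and the intervals of the 6 clusters overlap. Its LP4 level ran from 247 CPM in C to 1019 CPM in F. *Cxcl5* in LP4 ran from 29.9 CPM in C to 215 in D and 213 in B. Its ratio to Ctrl was 7.24 in A (6.20 to 8.56, from 7 Ctrl UMIs), 5.29 in B, 5.37 in C, 5.77 in D and 6.57 in E (4.70 to 9.62, from 2 UMIs). In LP1 over Ctrl, *Cxcl5* was lower in B, at −1.41 (−2.31 to −0.56), and was 1.04 (−0.20 to 2.49) in A and 1.23 (−1.10 to 4.50) in E, where the intervals include 0. The 37 Ctrl UMIs in B came from 18 cells, with up to 11 in a single cell, so its interval is too narrow. At the cells' own depth, which was greater in LP1, 1.05% of Ctrl and 0.890% of LP1 cells in B held a *Cxcl5* UMI. For LP4 over Ctrl in F, with 0 UMIs in Ctrl, the *Cxcl5* ratio was at least 3.87 against a floor of 3 counts. Cluster C had the lowest LP4 level of each of the 4 genes among the 6 clusters.

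The share of cells in cluster D was 15.1% for Ctrl, 13.6% for LP1 and 35.2% for LP4. It supplied 44.9% of the *Cxcl1*, 47.4% of the *Cxcl2*, 43.1% of the *Cxcl3* and 52.9% of the *Cxcl5* UMIs of LP4. Its leading genes over all libraries were *Cxcl5*, *F13a1*, *Serpinb2*, *Ms4a4a* and *Il4ra*, with *Il1a* and *Cxcl3* among the first 10, all of which are values of the same cells. That ranking pooled the libraries, and LP4 supplied 1642 of the 3248 cells of D but 470 of the 3419 of B. Within LP4, *Cxcl5* stood at 215 CPM in D and 213 in B, and *Cxcl3* at 696 in D, 641 in B and 1019 in F. With clusters A to F weighted by their Ctrl shares of UMIs, a calculation added after the data had been seen, LP4 over Ctrl was 0.038 for *Cxcl1*, −1.66 for *Cxcl2*, 6.97 for *Cxcl3* and 5.81 for *Cxcl5*.

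**Figure D4:**
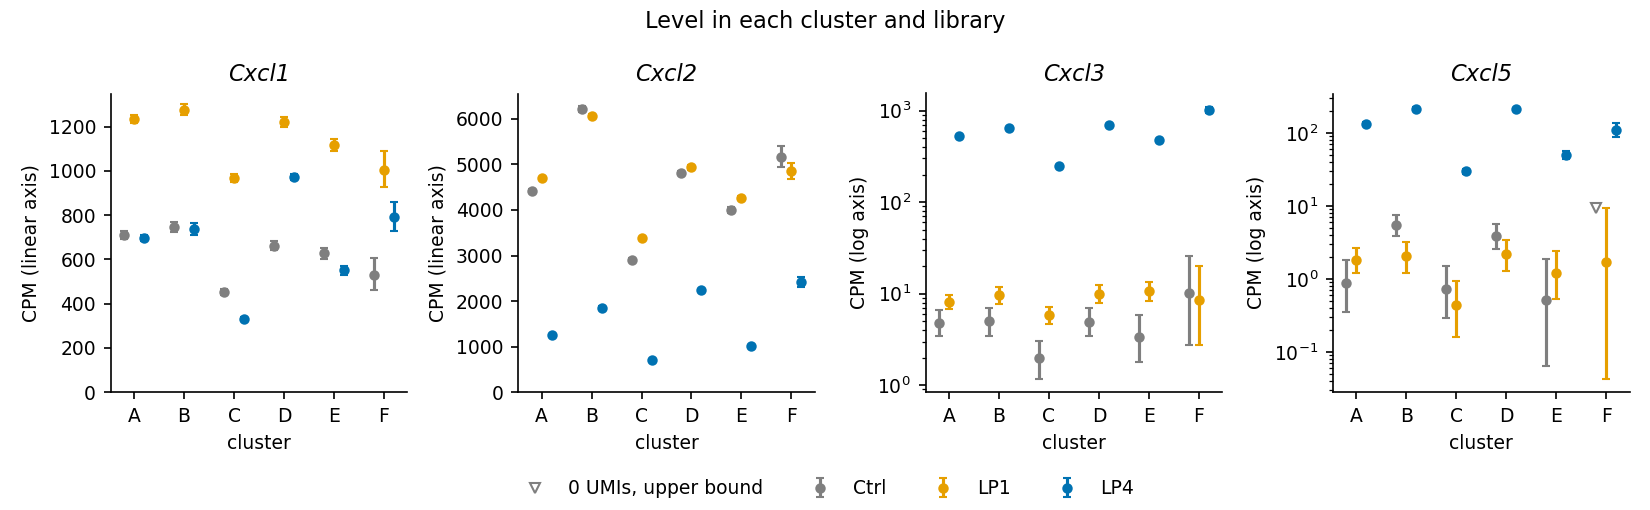
CPM of each chemokine in clusters A to F of each library, on a linear axis for *Cxcl1* and *Cxcl2* and a log axis for *Cxcl3* and *Cxcl5*; bars are exact 95% Poisson intervals and the open triangle is the upper bound for 0 UMIs. For *Cxcl1*, LP4 lies above Ctrl in D (972 against 662 CPM) and below it in C (329 against 451).

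The small clusters held a few cells with very high counts. In the 20 stromal-like cells of LP4, *Cxcl2* reached 8038 CPM (2722 UMIs) and *Cxcl1* 2528 CPM (856 UMIs), against 3743 and 309 CPM in the 22 such cells of Ctrl. The highest cell alone held 24.1% of those *Cxcl2* UMIs and 26.3% of those *Cxcl1* UMIs. In the 28 neutrophil-like cells of LP4, *Cxcl2* had 637 UMIs (2658 CPM). There 2 cells held 217 and 153 of the UMIs and the median cell held 0.5, so the level rests on these cells, and whether they are doublets was not tested. *Cxcl1* had 3 UMIs and *Cxcl5* had 0 UMIs in the neutrophil-like cells of LP4.

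The genes whose levels were most like each chemokine were sought by Pearson's r of log2(CPM + 10) over the 18 sums of 6 clusters and 3 libraries, among 3792 genes. The clusters of a library share its preparation and depth, so r is a description and is dominated by the 3 libraries. For *Cxcl1* they were *Nfkbia* (r = 0.91), the NF-κB inhibitor IκBα, which stood at 1199, 1926 and 1036 CPM in Ctrl, LP1 and LP4, then *Phlda1* (0.88) and *Junb* (0.85), an AP-1 subunit. For *Cxcl2* they were *Cd83* (0.97), a surface protein of activated antigen-presenting cells, at 416, 406 and 142 CPM, then *Rffl* (0.96) and *St3gal1* (0.95). For *Cxcl3* they were *Tor1aip2* (0.99), *Nos2* (0.99), the inducible nitric oxide synthase, at 0.392, 0.152 and 190 CPM, and *Gcnt2* (0.99). For *Cxcl5* they were *Mt2* (0.97), a metallothionein, *Adora2b* (0.97), an adenosine receptor, and *Ptges* (0.97), a prostaglandin E synthase.

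Between the members, r over the same 18 sums was 0.96 for *Cxcl3* with *Cxcl5*, 0.58 for *Cxcl1* with *Cxcl2* and −0.79 for *Cxcl2* with *Cxcl3*. With each library's mean taken out, so that only differences between clusters counted, all pairs had a positive r, among them 0.87 for *Cxcl2* with *Cxcl3*. In LP4 the same clusters thus tended to be high for all 4 genes, while the libraries differed in which genes were high. In Ctrl and LP1 the cluster levels of *Cxcl3* and *Cxcl5* were near or under the offset of 10 CPM. The r with these genes therefore rests mostly on LP4. In Ctrl, cluster F had less *Cxcl1* than A, at 531 against 711 CPM, but more *Cxcl2*, at 5174 against 4421 CPM.

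In the other lists, genes were counted where the higher library had at least 10 CPM. Of the other CXC chemokines, which act on other receptors, 4 of 9 reached that level, and 2 were at least 2-fold higher in LP4 than in Ctrl, beside 10.6% over all genes. *Cxcl10*, an interferon-induced attractant of T cells, stood at 20.1, 19.9 and 922 CPM (log2 ratio 5.52 in LP4) and *Cxcl16* at 149, 137 and 336 CPM (1.17). *Pf4* (−0.15) and *Cxcl14* (−0.34) were within 2-fold in LP4.

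Of the 16 other signals for neutrophil recruitment and production, 14 reached 10 CPM in LP4 or Ctrl. Of these, 9 were at least 2-fold higher and 2 at least 2-fold lower in LP4, beside 10.6% and 9.91% over all genes. The list's median log2 ratio was 1.37, against −0.07 over all genes, and 2 of 14 is near the share of all genes that were lower. *Il6* went from 1.09 and 1.45 CPM in Ctrl and LP1 to 24.7 in LP4 (4.50), as late as *Cxcl3* and *Cxcl5*. *Ccl4*, a chemokine of the CC family, stood at 114, 290 and 2524 CPM (1.35 in LP1 and 4.47 in LP4). *Tnf* stood at 840, 1119 and 280 CPM (0.41 and −1.58) and *Csf1*, the gene of M-CSF, at 99.3, 103 and 47.4 CPM (0.06 and −1.07), both lowest in LP4 as *Cxcl2* was. In LP1, 3 of 12 were at least 2-fold higher, beside 0.697% over all genes, namely *Ccl2*, *Ccl3* and *Ccl4*, and none was 2-fold lower.

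All 15 genes of NF-κB control reached 10 CPM. In LP4, 1 was at least 2-fold higher than in Ctrl and 1 at least 2-fold lower, near or under the 10.6% and 9.91% over all genes. The list's median log2 ratio was 0.12, beside −0.07 over all genes. *Bcl3*, an atypical IκB, stood at 46.7, 35.2 and 139 CPM (1.58), and *Chuk*, the kinase IKKα, at 17.4, 20.4 and 33.6 CPM (0.95). *Nfkbid*, another atypical IκB, stood at 149, 112 and 9.17 CPM (−4.02), and *Rel* at 351, 328 and 208 CPM (−0.75). In LP1 none of the 15 passed 2-fold in either direction.

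Of the 12 genes that control decay of such mRNAs, all reached 10 CPM, and in LP4 2 were at least 2-fold higher and 1 at least 2-fold lower. Over all genes the shares were 10.6% and 9.91%, so these counts are near the background. *Zfp36*, which encodes tristetraprolin, a protein that binds AU-rich elements and speeds decay, stood at 93.2, 185 and 398 CPM (0.99 in LP1 and 2.09 in LP4). *Arid5a*, which stabilises inflammatory mRNAs, stood at 19.7, 17.0 and 55.1 CPM (1.48 in LP4). *Dusp1*, the phosphatase that turns off p38, stood at 391, 598 and 165 CPM (−1.24 in LP4), and *Zfp36l2* at 86.7, 96.5 and 65.2 CPM (−0.41). In LP1 no gene of this list passed 2-fold, although *Zfp36* did with median-of-ratios scaling.

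The study set *Cxcl1* and *Cxcl2* beside *Nlrp3*, *Ccrl2* and *Il1f9*. It reported all of them as upregulated at both times in its single-cell data, and by RT-PCR at every time tested. It also reported more CXCL1 and CXCL2 protein in supernatants, with none detected from PBS-treated cells. Its supplementary list of genes higher in uninfected cells than in LP4 nevertheless holds *Cxcl2* and *Nlrp3*. The list of genes higher in LP1 than in uninfected cells holds *Cxcl1*, and that for LP4 holds *Cxcl3*. The study also names *Cxcl3* among the cytokine genes upregulated in LP4. In CPM *Cxcl2* had a log2 ratio of −1.56 in LP4, and the reason for the difference from RT-PCR was not tested. Ctrl held *Cxcl1* and *Cxcl2* RNA at 623 and 4378 CPM, while the study detected no such protein without *Bb*LP. The reason for this was not tested either. *Nlrp3*, the inflammasome sensor, stood at 573, 533 and 197 CPM, a course close to that of *Cxcl2*, with a log2 ratio of −1.54 (−1.57 to −1.51) in LP4. *Ccrl2*, a chemerin-binding receptor, stood at 147, 212 and 204 CPM (0.52 in LP1 and 0.47 in LP4). *Il1f9* stood at 0.869, 1.11 and 7.25 CPM, under 10 CPM in every library, with a log2 ratio of 3.06 (2.53 to 3.64) in LP4.

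**Figure D5:**
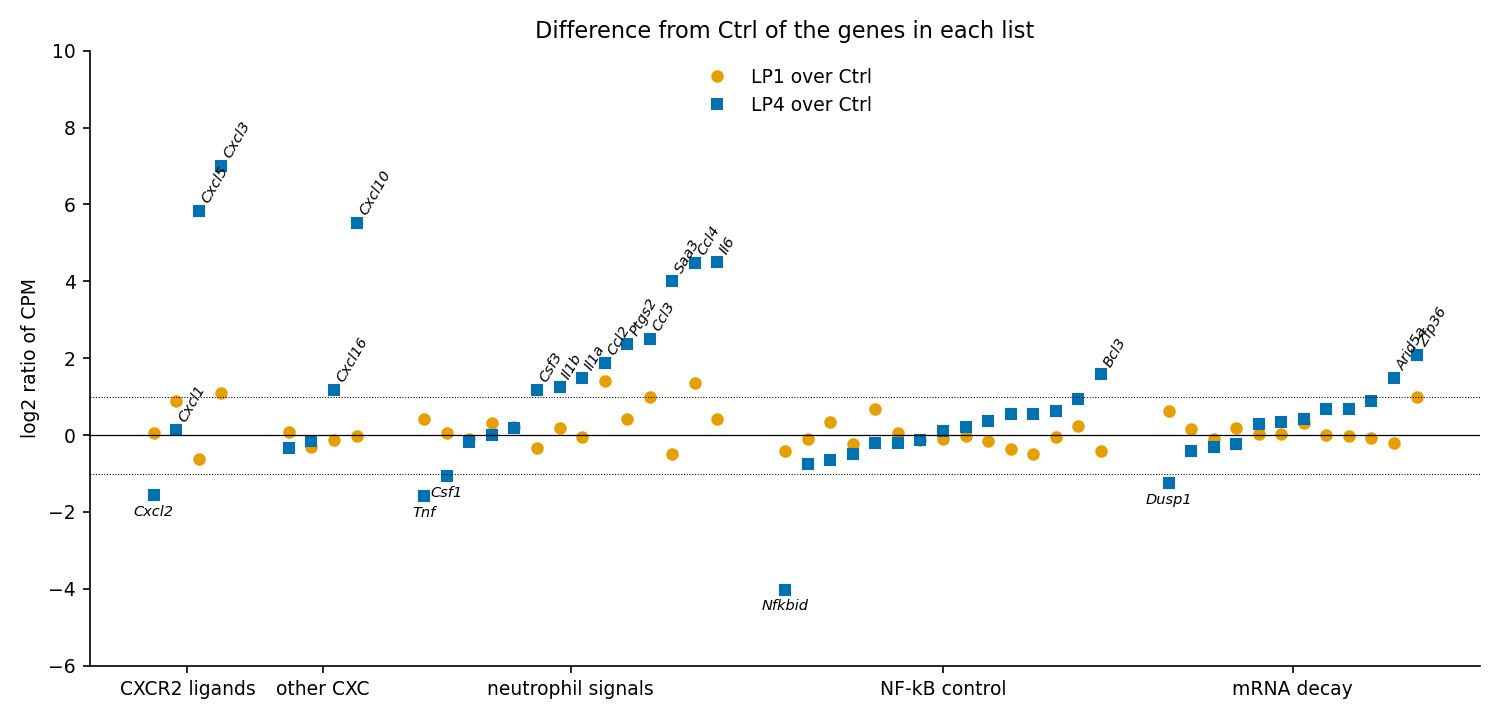
Log2 ratio of CPM to Ctrl in LP1 (circles) and LP4 (squares) for listed genes with at least 10 CPM in 1 library. *Nlrp3*, *Ccrl2* and *Il1f9* are not shown. Within a list, genes are ordered by the LP4 value. Dotted lines mark 2-fold, and genes past it in LP4, with *Cxcl1*, are named. *Cxcl3* at 7.0 lies highest and *Nfkbid* at −4.02 lowest.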

How the data were processed

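Single-cell RNA sequencing libraries of Ctrl, LP1 and LP4 BMDMs were compared. The deposited values are UMI counts per gene and barcode, which the authors made with Cell Ranger 7.1.0 on mm10 (the submitters' processing notes) from 10x 3′ libraries without normalization. The genes, lists and tests were chosen with earlier results of these data known. Named besides the 4 chemokines are all listed CXCR2 ligands and receptors, the 2 largest rises and falls of each other list in LP4 over Ctrl at 10 CPM or more, the genes the study groups with *Nlrp3*, the 3 genes most like each chemokine and markers that name clusters. UMIs were summed over kept cells and scaled to CPM. Intervals (95%) were exact Poisson for CPM, conditional binomial for ratios and binomial for shares. UMIs of 0 were set to 3 in ratios, which are then bounds. No test between conditions was run, since each has 1 library. Cells were thinned to 2000 UMIs for shares.

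For clusters, counts were scaled to 10000 per cell and logged. From 5240 genes that differed under 1.5 times between libraries, 2000 variable ones were centred within each library, and 30 components, 20 neighbours and Leiden clustering (resolution 0.5, seed 20) followed. Doublets were kept, and the 5% of cells with the highest Scrublet scores were left out as an alternative. Python 3.11.15, SciPy 1.17.1, scanpy 1.11.5, leidenalg 0.10.2 and edgeR 4.0.16 (TMM) were used. The ratios were tested on simulated Poisson counts. These lack the wider spread between cells seen in the libraries, so that spread was not covered. Alternatives were other cell filters, scalings, thinning depths, resolutions and minimum levels. Protein sequences and the promoter of *Cxcl5* were not used here.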

Additional observations from a re-analysis of the deposited data

Results flagged for a closer look

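The log2 ratio to Ctrl of *Cxcl2* was 0.057 in LP1 and −1.56 in LP4, so the library of 1 hour lay slightly above Ctrl and that of 4 hours below it. In LP1, 4 clusters lay above Ctrl and 2 below, namely B at −0.04 (−0.06 to −0.02) and F at −0.09 (−0.18 to −0.01). *Cxcl5* had the opposite signs in the library sums, −0.61 in LP1 and 5.84 in LP4. The LP1 sign was not the same in every measure: clusters A and E had 1.04 and 1.23, with intervals that include 0, and at the cells' own depth, which was greater in LP1, 0.869% of LP1 cells and 0.642% of Ctrl cells held a *Cxcl5* UMI. These differences between time points were not tested, since each time is 1 library.

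For *Cxcl1*, LP4 over Ctrl had opposite signs between clusters of cells, with −0.46 in C, −0.19 in E, 0.56 in D and 0.58 in F. The difference between clusters was not tested. The clusters were also drawn from cells of different depth: the median LP4 cell held 16426 UMIs in C and 10416 in D, and the part of depth was not tested.

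The barcodes removed by the cell limits held signal too. In the 369 removed LP4 barcodes *Cxcl3* stood at 430 CPM (interval 409 to 453) and *Cxcl5* at 116 CPM (104 to 128), beside 509 and 128 CPM in the kept cells. *Cxcl2* stood at 970 CPM in them, beside 1489, and *Cxcl1* at 496, beside 682. The 52 removed Ctrl barcodes held 0 UMIs of *Cxcl3* and *Cxcl5*, which allows up to 60.5 CPM, far above the 3.98 and 2.24 CPM of the kept Ctrl cells.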

How the results depend on the processing

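No paired analysis was possible because each condition has 1 library. At least 2-fold higher in LP4 than in Ctrl were 2 members and at least 2-fold lower was 1 under each of the 9 alternatives. The members were chosen on this pattern, so the unchanged count is a description and lends no support. Over all genes the shares were 10.6% and 9.91%, and with median-of-ratios scaling 14.1% and 6.77%. In LP1 over Ctrl, *Cxcl3* alone was 2-fold higher, and the count was 0 when cell shares were averaged. *Cxcl3* stood at 8.44 CPM in LP1, under the minimum of 10 CPM used for the share over all genes. Of the 2 members that reached this minimum, 0 were 2-fold higher, beside 0.697% over all genes. LP4 over Ctrl of *Cxcl1* was 0.39 with a mitochondrial limit of 3%, 0.30 with TMM, 0.34 with median-of-ratios scaling, 0.11 without mitochondrial and ribosomal protein genes, 0.20 as a mean of cell shares and 0.038 with Ctrl cluster weights. For *Cxcl2* it was −1.22, −1.39, −1.35, −1.58, −1.48 and −1.66 in the same order, −1.58 with every barcode, −1.59 in macrophage-like clusters and −1.54 without cells of high doublet score. *Cxcl3* stayed within 6.97 to 7.20 and *Cxcl5* within 5.78 to 6.04. The mitochondrial limit of 3% lies under the median share of kept LP4 cells (3.17%) and above that of Ctrl (1.97%). It thus left out a larger part of LP4 than of Ctrl. The cause of the shifts under these alternatives was not tested. With library means taken out, r turned from negative to positive for *Cxcl1* with *Cxcl3* (0.76) and *Cxcl5* (0.84) and for *Cxcl2* with *Cxcl3* (0.87) and *Cxcl5* (0.76). The share of all genes at least 2-fold lower in LP4 than in Ctrl was 24% with no minimum level. Median-of-ratios scaling took *Chuk* past 2-fold in LP4 and *Csf1* back under it. Thinned to 1000 or 4000 UMIs, the LP4 share of cells was 37.0% or 60.5% for *Cxcl1*, 52.4% or 74.5% for *Cxcl2*, 30.3% or 51.6% for *Cxcl3* and 6.81% or 10.3% for *Cxcl5*. At resolutions of 0.3 and 0.8, *Cxcl1* in LP4 over Ctrl again had both signs, from −0.20 to 0.42 and from −0.44 to 0.59. Depth limits *Cxcl5* in Ctrl and LP1, at 80 and 77 UMIs.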
